A study of Homo sapiens with 30 samples.

Results

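This account describes the resting difference between THP-1 cells and a pair of leukemia lines that carry an internal tandem duplication of FLT3 (FLT3-ITD), MV4-11 and Molm-14. All 3 are established human acute myeloid leukemia (AML) cell lines that grow in suspension, and THP-1 is known as a line without the duplication. The members are the 9 libraries of the knockout series whose cells carried the empty vector (EV), out of 30 libraries in the whole series: 3 of THP-1 EV, 3 of MV4-11 EV and 3 of Molm-14 EV. The EV cells were the controls of an MPC1 knockout (KO) that was made with a lentiviral CRISPR/Cas9 construct with a GFP marker and 1 guide, and all 3 lines were grown in RPMI medium with serum and added pyruvate. For each gene, THP-1 EV was set against the mean of MV4-11 EV and Molm-14 EV, with equal weight for each line, and then against each line alone. A gene is called above both lines or below both lines when it passed a 5% false discovery rate (FDR) in both single comparisons, in that direction. Genes on the X and Y chromosomes were left out. With 1 line against 2, the FLT3 genotype and everything else that separates THP-1 from the other lines cannot be told apart.

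FLT3 is a receptor tyrosine kinase of blood progenitors. Its internal tandem duplication makes the receptor signal without its ligand, chiefly through STAT5 and the RAS-ERK pathway, and STAT5 in turn drives genes such as CISH, PIM1, SOCS2 and the D-type cyclins. THP-1 is a monocytic leukemia line that is widely used as a model of monocytes and macrophages. All 3 lines carry a rearrangement of KMT2A, a chromatin regulator whose fusion proteins keep HOXA genes and their partner MEIS1 active in leukemia.

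Total counts ran from 5339360 to 9106478 in the 9 libraries, with the lowest total in THP-1 EV. A count of 0 allows up to 3 counts in a library, and such limits cover counting error only, since PCR copies are not independent molecules. Every pair of replicates differed by more than counting noise, with a chi-square per degree of freedom of 2.34 to 11.9, so all 9 libraries were kept. The labels do not say whether replicates were separate cultures, and the tests then measure the spread between these libraries, which may be technical. MPC1, the gene deleted in the KO arm, was at 100.01, 100.3 and 90.6 CPM in THP-1 EV, 56.4, 58.3 and 53.7 CPM in MV4-11 EV and 80.05, 79 and 72.9 CPM in Molm-14 EV, against means of 54.1, 24.8 and 37.4 CPM in the KO libraries of THP-1, MV4-11 and Molm-14. Here CPM is the usual count of a gene scaled to the depth of its library, with TMM factors. The myeloid surface marker CD33 was read in all 3 lines, at 69.3 ± 5 CPM in THP-1 EV, 171 ± 7.68 in MV4-11 EV and 61.3 ± 2.38 in Molm-14 EV (mean ± SD, n = 3). Lysozyme (LYZ), an abundant monocyte product, was at 789.9 ± 103 CPM in THP-1 EV, 6573 ± 839 in MV4-11 EV and 321 ± 32.1 in Molm-14 EV. CD68 was under 1 CPM in all 9 libraries. The T-cell receptor genes CD3D, CD3E and CD3G and the hemoglobin genes HBB, HBA1 and HBA2 were at 0 counts in all 9. Of the 2 tested T and NK cell genes none was called, of 5 B cell genes 2 were above both and 1 below, and of 3 erythroid and megakaryocyte genes 1 was above. The keratin genes KRT8 and KRT18, the 2 tested of the epithelial and stromal list, were below both. Summed CPM of the T and NK cell list lay between 8.88 and 12.6 in THP-1 EV, and that of the B cell list between 8.51 and 11.2.

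Of 13899 genes tested, THP-1 EV differed from the mean of both lines in 9552 (68.7%), with 4974 higher (35.8%) and 4578 lower (32.9%). THP-1 EV was above both lines in 3119 genes (22.4%) and below both in 2864 (20.6%). The remaining 3569 called genes differed from the mean of the lines without passing against each line in 1 direction. The median gap to the nearer line was 2.06-fold for genes above both and 1.63-fold for genes below both. With at least a 4-fold difference from each line, 934 genes were above both (6.72%) and 221 below both (1.59%). In CPM, all 3 THP-1 EV libraries lay above all 6 others for 3140 genes (22.6%) and below all 6 others for 2928 genes (21.1%). By the same rule at 4-fold, MV4-11 EV stood above the other lines in 250 genes and below them in 572, and Molm-14 EV above in 273 and below in 575. At the 5% FDR alone, MV4-11 EV stood above the other lines in 2144 genes and below them in 2235, and Molm-14 EV above in 2729 and below in 2371. THP-1 EV thus had more genes above the other lines than either of them had by both rules, and fewer genes below them at 4-fold but more at the FDR alone. These counts share libraries and no test was made between them. Of the 934 genes above both, 131 had 0 counts in all 6 libraries of the other lines. Of the 221 below both, 27 had 0 counts in the 3 THP-1 EV libraries. The shares of 22.4% above both and 20.6% below both are those to set beside the gene lists that follow.

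**Figure D1:**
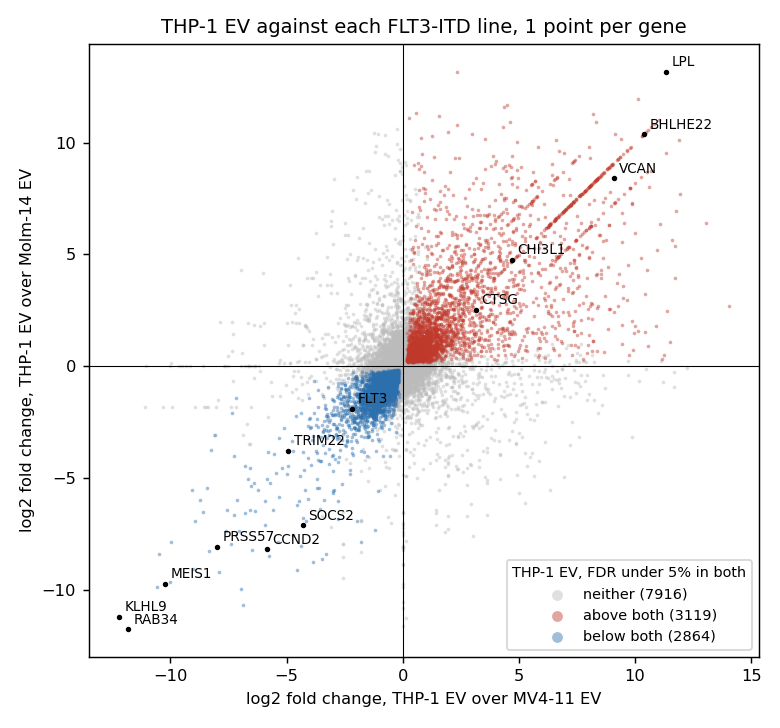
Each point is 1 of 13899 genes, with the log2 fold change of THP-1 EV over MV4-11 EV on the x axis and over Molm-14 EV on the y axis. Red points (3119) were above both lines and blue points (2864) below both at a 5% FDR in each comparison, grey points are the other genes, and the red diagonals at upper right are genes with few or no counts in both other lines, whose fitted values depend on the small count that the model adds.

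The genes highest in THP-1 EV relative to both lines had at most a few counts in MV4-11 and Molm-14, and several are best known from other tissues. By the rule for named genes, which ranks protein-coding genes by the smaller of their log2 fold changes against the 2 lines, with a floor of 10 CPM, they were LPL, ENPP4, DSC3, CDH2, NKX2-4, CNR1, ALX1, BHLHE22, CYP7B1, PENK, TSPYL5 and PGR. LPL, the lipoprotein lipase that macrophages secrete, was at 175, 162 and 149 CPM in THP-1 EV, 0.116, 0 and 0 CPM in MV4-11 EV and 0 CPM in all 3 libraries of Molm-14 EV. Its level in THP-1 EV was 3681-fold (95% counting interval 660.1 to 145425) higher than in MV4-11 and at least 1221-fold higher than in Molm-14. BHLHE22, a transcription factor gene of neurons, was at 203, 194 and 208 CPM in THP-1 EV, 0, 0.135 and 0.308 CPM in MV4-11 EV and 0.168, 0.113 and 0.132 CPM in Molm-14 EV. PGR, the progesterone receptor, was at 62.4, 59.7 and 83.2 CPM in THP-1 EV, 0 CPM in all 3 libraries of MV4-11 EV and 0, 0 and 0.132 CPM in Molm-14 EV. No library of MV4-11 or Molm-14 came near the THP-1 EV level of these genes, and none gave more than 2 counts of any of them. ENPP4, DSC3, CDH2, NKX2-4, CNR1, ALX1, CYP7B1 and PENK had 0 counts in all 6 libraries of the other lines, and their THP-1 EV means ran from 22.3 CPM for PENK to 36.7 CPM for ENPP4. CDH2 encodes N-cadherin and DSC3 a desmosomal cadherin, and both lie on chromosome 18. CNR1 encodes the brain cannabinoid receptor and PENK the precursor of the enkephalin peptides. CDH2 was at 27.8, 31.4 and 29.5 CPM in THP-1 EV, and the floor of 3 counts per group puts it at least 222-fold higher than in MV4-11 and at least 220.4-fold higher than in Molm-14. TSPYL5 was at 67.4, 71.3 and 71.8 CPM in THP-1 EV and had 1 count in all in the other lines. BHLHE22 overlaps BHLHE22-AS1, which was also above both lines, and the sources do not say whether the counting used the strand. Among long noncoding RNA genes, LINC02008 was at 10.4, 11.2 and 8.88 CPM in THP-1 EV, with 1 count in all in the other lines. LINC00960, at 15.2, 15.5 and 16.3 CPM in THP-1 EV, overlaps ZNF717, which was above both as well. The third, ENSG00000227706, was less even, at 29.3, 37.8 and 72.8 CPM in THP-1 EV, 1.04, 1.75 and 0.308 CPM in MV4-11 EV and 0, 0.9 and 0.659 CPM in Molm-14 EV.

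The genes with the lowest level in THP-1 EV relative to both lines were RAB34, KLHL9, MTAP, MEIS1, APOL4, H4C11, PRSS57, HMX3, IGF2BP1, HMX2, RAP2A and CCND2. MEIS1, the homeobox partner of HOXA proteins, was at 0, 0.15 and 0.362 CPM in THP-1 EV, 202, 209 and 206 CPM in MV4-11 EV and 145, 143 and 146 CPM in Molm-14 EV. That is 3 counts in all of THP-1 EV against 4630 and 3238 in the other lines, or 1351-fold (95% counting interval 462 to 6556) lower than in MV4-11 and 949.9-fold (95% counting interval 325 to 4608) lower than in Molm-14. Its neighbours in function did not share this: HOXA9 was at 43.7 ± 2.28 CPM in THP-1 EV, 39.4 ± 3.14 in MV4-11 EV and 49.8 ± 2.86 in Molm-14 EV, and was not called against either line (FDR 0.193 and 0.109), while PBX3, another MEIS1 partner, was above both lines at 173, 183 and 198 CPM in THP-1 EV, 68.9, 81 and 78.8 CPM in MV4-11 EV and 91, 100.2 and 88.4 CPM in Molm-14 EV (log2 fold change 1.13 ± 0.07, FDR 5.44e-14). HOXA9 is named here after its values were seen. Of 13 tested members of the HOXA and HOXB clusters with MEIS1 and PBX3, PBX3 was the 1 above both and MEIS1 the 1 below both. The median of the list was 2.03 against MV4-11 EV and -0.81 against Molm-14 EV, so its members were not at like levels in the 3 lines.

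RAB34, a small GTPase gene, had 0 counts in THP-1 EV and was at 71.8, 59.8 and 60.8 CPM in MV4-11 EV and 66.8, 57.3 and 59.9 CPM in Molm-14 EV, which makes it at least 425-fold lower than in MV4-11 and at least 399-fold lower than in Molm-14. APOL4, of the apolipoprotein L cluster, had 0 counts in THP-1 EV too and means of 18.2 and 14.1 CPM in MV4-11 EV and Molm-14 EV. HMX2 and HMX3, neighbouring homeobox genes on chromosome 10, went together. HMX3 had 1 count in THP-1 EV against 369 in MV4-11 EV and 897 in Molm-14 EV, and HMX2 had 5 against 681 and 571. IGF2BP1, an RNA-binding protein of fetal cells, had 3 counts against 753 and 654. RAP2A, a RAS-related GTPase, was at 0.399, 0.598 and 0.725 CPM in THP-1 EV, 55.4, 49 and 50.6 CPM in MV4-11 EV and 180.3, 157 and 180.4 CPM in Molm-14 EV. H4C11 had 1 count against 501 and 467; histone H4 genes are near-identical copies, so how reads were split among them is uncertain. The lncRNA genes of this group were BALR6, MIR124-1HG and MIR34AHG. MIR34AHG, the host gene of miR-34a, was at 1.2, 1.05 and 1.99 CPM in THP-1 EV, 17.3, 14.3 and 13.4 CPM in MV4-11 EV and 12.3, 10.2 and 8.84 CPM in Molm-14 EV. MIR124-1HG was at 2.53, 2.39 and 3.08 CPM in THP-1 EV, 159, 146 and 139.5 CPM in MV4-11 EV and 40.4, 36.1 and 37.3 CPM in Molm-14 EV. BALR6 overlaps TBC1D5, which was above both lines, and was at 0.393 ± 0.208 CPM in THP-1 EV, 40.1 ± 4.76 in MV4-11 EV and 36.6 ± 3.71 in Molm-14 EV.

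KLHL9 and MTAP lie near each other on the short arm of chromosome 9, at 9p21, beside the tumor suppressor genes CDKN2A and CDKN2B. KLHL9, an adaptor of a ubiquitin ligase (GRCh38 chr9:21329665-21335404, - strand), had 0 counts in THP-1 EV and was at 81.1, 84.4 and 84.5 CPM in MV4-11 EV and 42.7, 40.6 and 42.3 CPM in Molm-14 EV. MTAP, the enzyme that salvages methionine from methylthioadenosine (chr9:21802636-21937651, + strand), had 1 count in THP-1 EV, 2334 in MV4-11 EV and 1436 in Molm-14 EV. CDKN2A, which encodes the cell cycle inhibitors p16 and p14ARF (chr9:21967752-21995301, - strand), was at 37.3, 37.3 and 39.2 CPM in MV4-11 EV and had 0 counts in all libraries of both THP-1 EV and Molm-14 EV. CDKN2B, the gene of p15, was at 0 in the same 6 libraries and at 3.6, 3.77 and 2.31 CPM in MV4-11 EV. The antisense gene CDKN2B-AS1, which overlaps both, had 0 counts in THP-1 EV, 138 in MV4-11 EV and 17 in Molm-14 EV. The run of empty genes had a start and an end. Before it in map order, FOCAD was at 139.8, 153 and 139 CPM in THP-1 EV, 104, 99.2 and 102.1 CPM in MV4-11 EV and 73.7, 79.3 and 72.1 CPM in Molm-14 EV and was above both lines, and HACD4, an enzyme of long-chain fatty acids, was read in all 9 libraries. After it, ELAVL2, which encodes a neuronal RNA-binding protein, had 128 counts in THP-1 EV and 0 in both other lines. Within it, the 7SL RNA copy RN7SL151P held 479 counts in THP-1 EV; such copies share sequence with many others in the genome. In the KO libraries, THP-1 had 3 counts of KLHL9, 7 of MTAP and 0 of CDKN2A, CDKN2B and CDKN2B-AS1. RNA counts do not show whether DNA of this region is present, and copy number was not measured here.

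**Figure D2:**
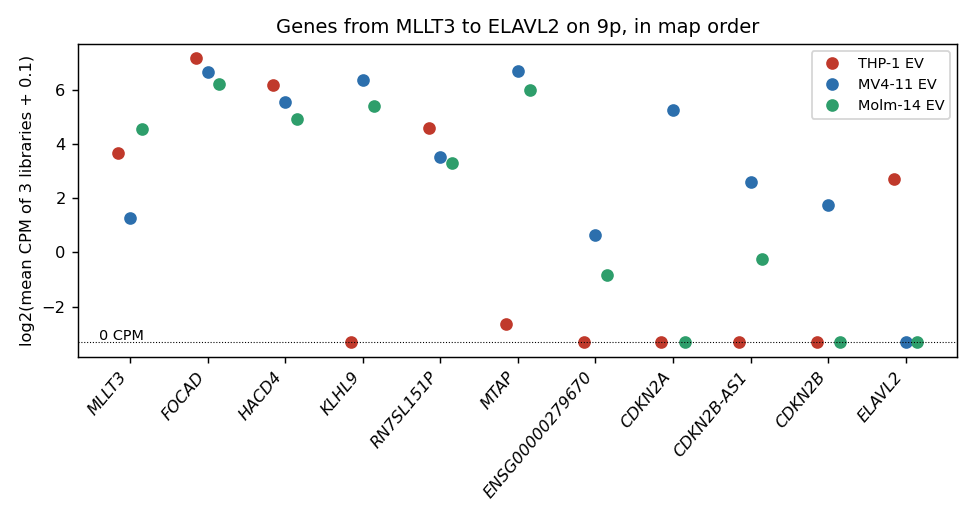
Mean level of 3 EV libraries per line, as log2(mean CPM + 0.1), for genes from MLLT3 to ELAVL2 in map order, with 0 CPM marked by the dotted line. THP-1 EV (red) was at or near 0 from KLHL9 to CDKN2B except at RN7SL151P, Molm-14 EV (green) was at 0 for CDKN2A and CDKN2B, and ELAVL2 was read in THP-1 EV and in neither other line.

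FLT3 itself was lower in THP-1 EV than in both lines, at 169, 167 and 144 CPM in THP-1 EV, 771, 707 and 699 CPM in MV4-11 EV and 606, 549.9 and 643 CPM in Molm-14 EV (log2 fold change -2.04 ± 0.08, FDR 3.89e-18). The THP-1 EV libraries lay well under the lowest of the others, by 4.53-fold against MV4-11 and 3.74-fold against Molm-14 in the means. Of 25 tested cytokine and growth factor receptor genes, 8 were above both lines and 5 below both. These shares, 32% and 20%, compare with 22.4% and 20.6% over all genes. IL7R, the interleukin-7 receptor, was at 2.93, 2.84 and 2.72 CPM in THP-1 EV, 46.8, 43.1 and 50.9 CPM in MV4-11 EV and 14.3, 14.1 and 15.3 CPM in Molm-14 EV. IGF1R, the receptor of insulin-like growth factor, was at 1.33, 1.94 and 3.26 CPM in THP-1 EV, 9.87, 17.1 and 16 CPM in MV4-11 EV and 29.1, 48.8 and 26.4 CPM in Molm-14 EV. Among receptors above both, IL6R, which overlaps IL6R-AS1 (also above both), was at 656, 623 and 676 CPM in THP-1 EV, 207, 200.2 and 209 CPM in MV4-11 EV and 259, 270.3 and 266 CPM in Molm-14 EV. IL1R1, the interleukin-1 receptor, had 123 counts in THP-1 EV against 0 and 2. KIT, another progenitor receptor of the same family as FLT3, was at 20.7, 23.5 and 25.7 CPM in THP-1 EV, 14.6, 19.5 and 20.05 CPM in MV4-11 EV and 0.336, 1.13 and 0.923 CPM in Molm-14 EV. It was called above both (FDR 0.0244 against MV4-11), but not in a fit to the 9 EV libraries alone, nor without MV4-11 EV replicate 1 or THP-1 EV replicate 2 or 3.

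Known STAT5 target genes were mostly lower in THP-1 EV. STAT5 activity was not measured, and the list was chosen with earlier results of these data known. Of 14 tested, 8 were below both lines (CCND2, SOCS2, OSM, SOCS1, CISH, SOCS3, PIM1 and CCND3) and 2 above both (BCL6 and ID1), and the median log2 fold change was -2.3, against 0.02 over all genes tested. SOCS2, a feedback inhibitor of cytokine signals, was at 3.46, 3.44 and 2.17 CPM in THP-1 EV, 71.4, 56.1 and 56.1 CPM in MV4-11 EV and 445, 396 and 455 CPM in Molm-14 EV (log2 fold change -5.71 ± 0.14, FDR 9.51e-23). CCND2, the cyclin D2 gene, was at 0.798, 0.748 and 2.54 CPM in THP-1 EV, 78.2, 76.9 and 68.9 CPM in MV4-11 EV and 348, 422 and 359 CPM in Molm-14 EV (log2 fold change -7.02 ± 0.18, FDR 9.77e-23). For both genes Molm-14 EV was several times above MV4-11 EV, and THP-1 EV was far below each. PIM1, a survival kinase, was at 12.6, 11.7 and 7.61 CPM in THP-1 EV, 148, 119.7 and 135 CPM in MV4-11 EV and 24.2, 20.9 and 24 CPM in Molm-14 EV. CISH, which encodes a feedback inhibitor, was at 3.99, 5.83 and 8.52 CPM in THP-1 EV, 29.1, 38.5 and 44.4 CPM in MV4-11 EV and 17.2, 25.1 and 21.8 CPM in Molm-14 EV. ID1, an inhibitor of bHLH factors, lost its call without Molm-14 EV replicate 2 (FDR 0.0534). BCL6, the gene of a transcriptional repressor, was above both, at 5.72, 7.48 and 8.15 CPM in THP-1 EV, 1.04, 0.942 and 1.08 CPM in MV4-11 EV and 1.18, 1.35 and 1.05 CPM in Molm-14 EV (log2 fold change 2.65 ± 0.22, FDR 2.91e-11). CISH overlaps MAPKAPK3 and SOCS2 overlaps SOCS2-AS1 on the opposite strand, and both of those were below both lines too. STAT5A was itself below both lines, at 5.85, 7.03 and 8.88 CPM in THP-1 EV, 31.3, 33.3 and 29.1 CPM in MV4-11 EV and 36.3, 33.1 and 32.3 CPM in Molm-14 EV, and STAT5B less so, at 49 ± 1.21 CPM in THP-1 EV, 60.3 ± 2.9 in MV4-11 EV and 63.6 ± 1.99 in Molm-14 EV.

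The consensus of STAT5 binding, TTCNNNGAA, was looked for in RefSeq promoters (GRCh38.p14, 250 bases before to 50 after the gene start). The motif reads alike on both strands and was held by 7.88% of 27305 promoters. Of 10 promoters matched to the tested STAT5 targets, 2 held it, those of CISH and BCL6, with 4 copies each. They are shown because these genes differed in opposite directions and each has a cluster of the motif. Capitals mark the motif, sequences run 5′ to 3′ on the strand of the gene (the minus strand for both), and a match is a description, not a binding site.
CISH, chr3:50611999-50612023: gccccgttTTCCTGGAAagttcttg
CISH, chr3:50611988-50612012: ctggaaagTTCTTGGAAatctgtca
CISH, chr3:50611887-50611911: gcccgcggTTCTAGGAAgacgctgc
CISH, chr3:50611870-50611894: gacgctgcTTCCGGGAAgggctgga
BCL6, chr3:187745480-187745504: agctcaaaTTCCGAGAAttgagctc
BCL6, chr3:187745457-187745481: tctgttgaTTCTTAGAActggggtt
BCL6, chr3:187745442-187745466: aactggggTTCTTAGAAgtggtgat
BCL6, chr3:187745419-187745440: caagaagtTTCTAGGAAaggcc

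Output and feedback genes of the ERK pathway were mixed: 4 of 17 tested members were above both lines and 8 below both, with a median of -0.43. MYC, the growth regulator, was at 146, 150.1 and 162 CPM in THP-1 EV, 384, 428 and 409 CPM in MV4-11 EV and 409, 427 and 391.9 CPM in Molm-14 EV (log2 fold change -1.42 ± 0.07, FDR 1.26e-15), and all 3 THP-1 EV libraries lay under the other 6. IER3, an immediate early gene, was at 0.188 ± 0.164 CPM in THP-1 EV, 1.17 ± 0.189 in MV4-11 EV and 2.29 ± 0.552 in Molm-14 EV. The phosphatase gene DUSP4 was above both, at 7.38 ± 0.831 CPM in THP-1 EV, 1.58 ± 0.382 in MV4-11 EV and 2.92 ± 1.27 in Molm-14 EV, but not in the KO libraries.

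**Figure D3:**
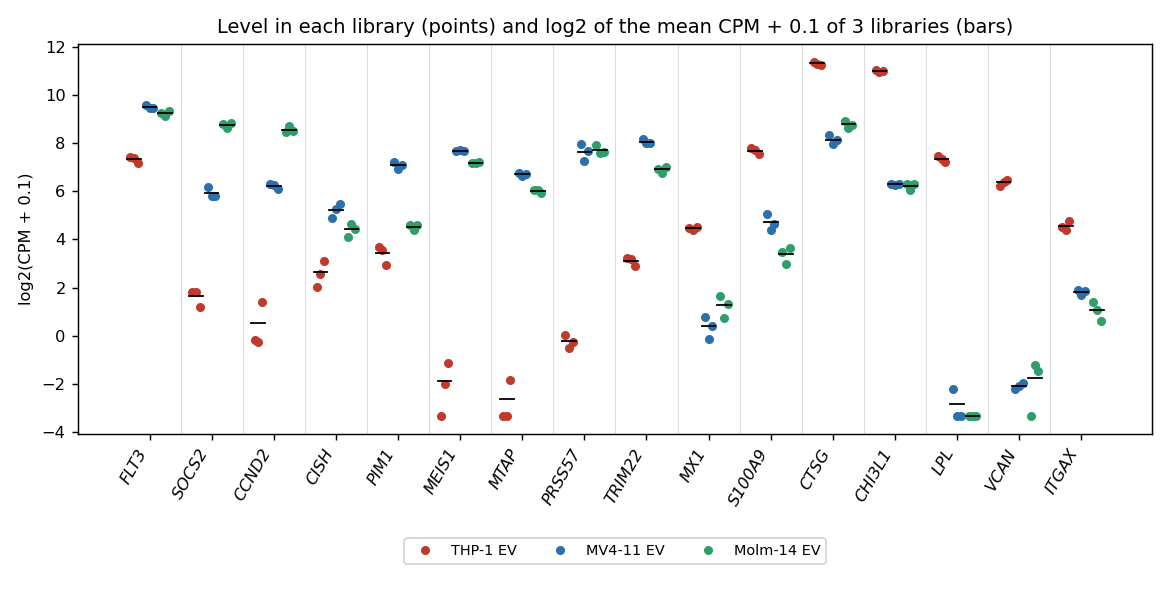
Level of 16 genes in each of the 9 EV libraries (points, log2(CPM + 0.1)), with THP-1 EV in red, MV4-11 EV in blue and Molm-14 EV in green, and bars at the log2 of the mean CPM + 0.1. From FLT3 to TRIM22 the red points lie below both other lines and from MX1 to ITGAX above both, without overlap in any of the 16 genes. These genes were picked from those called above or below both. Over all genes, 22.6% lay above and 21.1% below all 6 other libraries.

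Markers of monocytes and macrophages were more often above both lines: 14 of 32 tested members were above both lines and 3 below both, or 43.8% and 9.38%, with a median of 1.04. The medians against the single lines differed, at 0.15 over MV4-11 EV and 2.02 over Molm-14 EV. VCAN, the matrix proteoglycan versican of classical monocytes, was at 74.6, 84 and 87.5 CPM in THP-1 EV, 0.116, 0.135 and 0.154 CPM in MV4-11 EV and 0, 0.338 and 0.264 CPM in Molm-14 EV (log2 fold change 8.75 ± 0.19, FDR 7.95e-24). ITGAX, which encodes the integrin CD11c, was at 22.5, 20.8 and 27.4 CPM in THP-1 EV, 3.6, 3.1 and 3.55 CPM in MV4-11 EV and 2.52, 2.03 and 1.45 CPM in Molm-14 EV. CD14, the co-receptor for lipopolysaccharide, was at 3.72, 3.14 and 3.08 CPM in THP-1 EV, 0.116, 0.135 and 0.308 CPM in MV4-11 EV and 0.168, 0.225 and 0.132 CPM in Molm-14 EV. CD14 was thus 17.8-fold higher than in MV4-11 and 18.9-fold higher than in Molm-14, though at a low level in THP-1 EV too. CSF1R, the receptor of the monocyte growth factor M-CSF, did not separate THP-1 EV from MV4-11 EV, at 44.4, 41.9 and 60.3 CPM in THP-1 EV, 28.8, 52 and 55.2 CPM in MV4-11 EV and 1.35, 2.36 and 3.03 CPM in Molm-14 EV (FDR 0.655 against MV4-11 EV), though it was called above both in KO. CD4 and SIRPA were below both, CD4 at 60.9 ± 8.16 CPM in THP-1 EV, 172 ± 14 in MV4-11 EV and 113 ± 12.7 in Molm-14 EV and SIRPA at 28.6 ± 9.15 CPM in THP-1 EV, 61.1 ± 8.53 in MV4-11 EV and 65.5 ± 8.62 in Molm-14 EV. LYZ, given earlier, lay between the other lines. Fewer cells that express a gene and less RNA of it per cell cannot be told apart in these bulk libraries. Summed CPM of the monocyte and macrophage list was 2677 to 3095 in THP-1 EV, 8052 to 9694 in MV4-11 EV and 1145 to 1231 in Molm-14 EV, the same order of lines as for LYZ, which is on the list. Of 17 stem and progenitor markers only 6 were tested, and 3 of these (ERG, CD38 and KIT) were above both lines and 0 below both. Over all genes the shares were 22.4% and 20.6%. In KO 2 members were above both, and the call of KIT was unstable, as given above. No trait of THP-1 was read from so few members.

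The gene groups that mature macrophages use to store lipid and degrade material were also more often above both lines. For lysosome and lipid handling genes, 16 of 30 tested members were above both lines and 3 below both (53.3% and 10%). The median was 0.97, with 0.52 over MV4-11 EV and 1.40 over Molm-14 EV, and 10 members were at least 4-fold above each line. On this and the other gene lists, a member silent in both other lines passed the filter on low counts only through THP-1. Such a member could be above both but not below both, so these counts and medians depend in part on the filter. CHI3L1, a secreted chitinase-like protein, was at 2097, 1943 and 2001 CPM in THP-1 EV, 79.4, 75.7 and 78.2 CPM in MV4-11 EV and 77.7, 66.8 and 78.6 CPM in Molm-14 EV (log2 fold change 4.73 ± 0.07, FDR 1.74e-27). GPNMB, a lysosomal membrane glycoprotein, was at 37.1, 36 and 30.4 CPM in THP-1 EV, 0 CPM in all 3 libraries of MV4-11 EV and 1.01, 0.9 and 0.923 CPM in Molm-14 EV. SPP1 (osteopontin), APOE and APOC1 were above both at lower levels, with means of 8.7, 5.17 and 19.4 CPM in THP-1 EV and at most 1.06 CPM in either other line. LIPA, the lysosomal acid lipase, was below both, at 82.4 ± 10.1 CPM in THP-1 EV, 140.4 ± 5.3 in MV4-11 EV and 184 ± 12.1 in Molm-14 EV; it lies on chromosome 10 and overlaps IFIT genes. Of S100 genes, 6 of 9 tested members were above both lines and 1 below both (median 1.6). S100A8 and S100A9, which form the calprotectin of neutrophils and monocytes, were led by S100A9 at 223, 209 and 184 CPM in THP-1 EV, 33.3, 21 and 25 CPM in MV4-11 EV and 11.1, 7.88 and 12.4 CPM in Molm-14 EV. S100A8 was at 57.6, 57.6 and 42.6 CPM in THP-1 EV, 9.98, 7 and 10.6 CPM in MV4-11 EV and 5.38, 6.75 and 5.54 CPM in Molm-14 EV. For both, the lowest THP-1 EV library was several times the highest of the other lines.

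Proteins of primary granules, which neutrophil precursors make, split by gene: 3 of 14 tested members were above both lines and 6 below both. CTSG, the protease cathepsin G, was at 2649, 2477 and 2433 CPM in THP-1 EV, 318, 251 and 278 CPM in MV4-11 EV and 488, 396 and 435 CPM in Molm-14 EV (log2 fold change 2.84 ± 0.08, FDR 8.45e-22). AZU1, its neighbour in granules, was above both by 1.83-fold and 1.88-fold. PRSS57, another granule serine protease, was at 0.931, 0.598 and 0.725 CPM in THP-1 EV, 245, 151 and 202 CPM in MV4-11 EV and 244, 190.2 and 198 CPM in Molm-14 EV (log2 fold change -8.04 ± 0.3, FDR 8.55e-14), and so was nearly lost from THP-1 EV. CST7, an inhibitor of cathepsins, was at 3.21 ± 1.2 CPM in THP-1 EV, 16.5 ± 2.25 in MV4-11 EV and 32.3 ± 1.84 in Molm-14 EV. MPO, myeloperoxidase, was not apart from both: it was at 8.64, 7.03 and 7.79 CPM in THP-1 EV, 9.05, 9.16 and 8.63 CPM in MV4-11 EV and 93, 84.1 and 80.7 CPM in Molm-14 EV, with FDR 0.265 against MV4-11 EV. None of the 10 later granule genes passed the filter on low counts. Of myeloid transcription factors, 10 of 31 tested members were above both lines and 4 below both. PPARG, the lipid-sensing nuclear receptor of macrophages, was at 22.1, 25.6 and 17.6 CPM in THP-1 EV, 0.116, 0.269 and 0.154 CPM in MV4-11 EV and 0.336, 0.338 and 0.923 CPM in Molm-14 EV. MAF, a macrophage factor, had 72 counts in THP-1 EV against 0 and 1. CEBPE was at 6.51 ± 1.5 CPM in THP-1 EV, 2.03 ± 1.07 in MV4-11 EV and 0.488 ± 0.0848 in Molm-14 EV, and the progenitor factor MYB was below both by a small step, at 651 ± 34.3 CPM in THP-1 EV, 832 ± 80.9 in MV4-11 EV and 839 ± 24 in Molm-14 EV.

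Genes that interferon induces were more often above both lines. On that list 18 of 41 tested members were above both lines and 2 below both (43.9% and 4.88%), and the median was 0.99. The gap was wider against MV4-11 EV (median 1.52) than against Molm-14 EV (0.38). MX1, an antiviral GTPase, was at 21.9, 21.1 and 22.7 CPM in THP-1 EV, 1.63, 0.808 and 1.23 CPM in MV4-11 EV and 3.03, 1.58 and 2.37 CPM in Molm-14 EV (log2 fold change 3.7 ± 0.18, FDR 3.03e-16). IFI6 was at 18.9, 17 and 16.7 CPM in THP-1 EV, 4.99, 2.83 and 4.16 CPM in MV4-11 EV and 1.85, 2.03 and 2.24 CPM in Molm-14 EV. IFI44L was at 3.72, 5.38 and 4.71 CPM in THP-1 EV, 0.116, 0 and 0.154 CPM in MV4-11 EV and 0, 0.113 and 0.264 CPM in Molm-14 EV. The levels were modest, yet no THP-1 EV library overlapped another line for these genes. The 2 members below both were XAF1 and TRIM22. XAF1 was barely called (FDR 0.0497 against MV4-11 EV) and lost its call under DESeq2 size factors (FDR 0.123), in the 9 EV libraries alone and without any 1 of MV4-11 EV replicates 1 and 2, Molm-14 EV replicate 3 and THP-1 EV replicates 1 and 3. TRIM22, an antiviral ubiquitin ligase, was at 9.31, 9.12 and 7.25 CPM in THP-1 EV, 284, 254 and 253 CPM in MV4-11 EV and 121, 108 and 128 CPM in Molm-14 EV (log2 fold change -4.36 ± 0.1, FDR 4.49e-23). It overlaps TRIM5, which was also below both lines.

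The core of the interferon-stimulated response element, GAAA, any 2 bases and GAAA again, searched on both strands, was in 3.65% of the 27305 promoters. Of 31 list promoters matched, 19 held it: 10 of 13 from genes above both lines, 9 of 17 from genes that were neither, and 0 of 1 from genes below both. Promoters of the tested list thus held the core whether or not the gene differed in THP-1 EV. Examples from genes above both follow, on the strand of the gene with the core in capitals; for IFI44 and IFIT3 the core reads in the other direction.
MX1, chr21:41420562-41420585, plus strand: cagaaatGAAACCGAAActgaatt
EPSTI1, chr13:42992275-42992298, minus strand: attctgaGAAACCGAAActcagct
OAS3, chr12:112938455-112938478, plus strand: cgggcggGAAAACGAAAccagaaa
IFI6, chr1:27672332-27672355, minus strand: gagagggGAAAATGAAActctgca
IFI44, chr1:78649764-78649787, plus strand: cactgagTTTCAGTTTCctttctc
IFIT3, chr10:89327868-89327891, plus strand: aaattagTTTCACTTTCcagtttc

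Antigen presentation genes were counted by class. For class I, 6 of 18 tested members were above both lines and 2 below both. TAP1, a subunit of the peptide transporter, which overlaps PSMB9 (also above both), was at 78.9, 72.2 and 72.1 CPM in THP-1 EV, 22.2, 24.1 and 26.2 CPM in MV4-11 EV and 37.7, 33.6 and 30.2 CPM in Molm-14 EV, and B2M, the light chain of class I molecules, at 1575 ± 235 CPM in THP-1 EV, 953 ± 109 in MV4-11 EV and 836 ± 74.7 in Molm-14 EV. HLA-E was below both, at 105 ± 4.58 CPM in THP-1 EV, 178 ± 9.88 in MV4-11 EV and 179 ± 9.81 in Molm-14 EV. For class II, 3 of 10 tested members were above both lines and 4 below both. CIITA, the master activator of class II genes, was at 1.06 ± 0.992 CPM in THP-1 EV, 4.83 ± 1.89 in MV4-11 EV and 4.24 ± 1.22 in Molm-14 EV. CD74, the invariant chain, was at 25.5, 30.1 and 33.9 CPM in THP-1 EV, 106, 132 and 136 CPM in MV4-11 EV and 51.5, 53 and 47.9 CPM in Molm-14 EV, and HLA-DRA at 6.33 ± 1.11 CPM in THP-1 EV, 25.1 ± 1.47 in MV4-11 EV and 10.7 ± 0.787 in Molm-14 EV. HLA-DRB1 and HLA-DRB5 were above both, HLA-DRB1 at 54.9, 52 and 47.7 CPM in THP-1 EV, 13.9, 12.7 and 13 CPM in MV4-11 EV and 5.04, 3.94 and 4.35 CPM in Molm-14 EV; HLA genes differ between people and have near-identical copies, so counts of the DRB genes also depend on how well each line matches the reference. Of TNF and NF-kB inflammatory genes, 5 of 24 tested members were above both lines and 4 below both, near the shares over all genes. TNF was at 1.6, 1.79 and 2.17 CPM in THP-1 EV, 16.5, 15.8 and 18.2 CPM in MV4-11 EV and 16.5, 14.7 and 15.6 CPM in Molm-14 EV (log2 fold change -3.13 ± 0.18, FDR 1.45e-14), ICAM1 at 0.628 ± 0.563 CPM in THP-1 EV, 4.91 ± 0.488 in MV4-11 EV and 29 ± 0.243 in Molm-14 EV and CD83 at 5.09 ± 0.435 CPM in THP-1 EV, 16.5 ± 0.591 in MV4-11 EV and 16.4 ± 2.38 in Molm-14 EV. The 5 above both were BIRC3, NFKBIZ, REL, IL1RN and CASP1. BIRC3, an inhibitor of apoptosis, was at 2.39 ± 0.283 CPM in THP-1 EV, 0.257 ± 0.0976 in MV4-11 EV and 0.681 ± 0.157 in Molm-14 EV. NFKBIZ, a nuclear IkB protein whose gene overlaps NXPE3 (also above both), was at 16.6 ± 1.74 CPM in THP-1 EV, 6.15 ± 1.74 in MV4-11 EV and 8.65 ± 0.603 in Molm-14 EV.

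Among integrins and adhesion molecules, 12 of 33 tested members were above both lines and 4 below both (36.4% and 12.1%). ITGAV, the integrin alpha V chain, was at 124, 144 and 129.7 CPM in THP-1 EV, 16.1, 21.4 and 17.4 CPM in MV4-11 EV and 37.2, 42.2 and 33.4 CPM in Molm-14 EV. ALCAM, a cell adhesion molecule, was at 502, 523 and 432 CPM in THP-1 EV, 84, 82.9 and 75.4 CPM in MV4-11 EV and 113, 117 and 119.7 CPM in Molm-14 EV. ITGA2, part of a collagen receptor, had 239 counts in THP-1 EV, 18 in MV4-11 EV and 0 in Molm-14 EV. Of chemotactic receptors, 3 of 20 tested members were above both lines and 4 below both (15% and 20%). CX3CR1, the fractalkine receptor of patrolling monocytes, was above both at 30.8 ± 0.827 CPM in THP-1 EV, 7.57 ± 0.74 in MV4-11 EV and 10.5 ± 2 in Molm-14 EV. GPR183, a receptor for oxysterols, was below both at 7.81 ± 0.488 CPM in THP-1 EV, 33.2 ± 0.534 in MV4-11 EV and 43.9 ± 6.66 in Molm-14 EV.

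The knockout of the series removed a carrier of pyruvate, so metabolic gene lists were examined as well. Of genes of glycolysis and lactate export, 7 of 30 tested members were above both lines and 13 below both (23.3% and 43.3%). Enzymes were among the lower members: GAPDH was at 1212, 1152 and 1107 CPM in THP-1 EV, 2935, 2623 and 2799 CPM in MV4-11 EV and 3478, 3061 and 3158 CPM in Molm-14 EV, and GPI, on chromosome 19, was at 154, 150.3 and 179.9 CPM in THP-1 EV, 457, 552 and 566 CPM in MV4-11 EV and 331, 353 and 311 CPM in Molm-14 EV. Of the 13 below both, 4 lie on chromosome 12 (GAPDH, LDHB, SLC2A3 and TPI1), of 6 members there. Sugar transporters differed by isoform. SLC2A5, the fructose transporter, was at 203, 175 and 167 CPM in THP-1 EV, 36.3, 32.6 and 35.6 CPM in MV4-11 EV and 30.1, 25.5 and 26.2 CPM in Molm-14 EV (log2 fold change 2.56 ± 0.07, FDR 2.23e-21). SLC2A1, the general glucose transporter, was at 179, 156 and 202 CPM in THP-1 EV, 91.1, 83.9 and 90.4 CPM in MV4-11 EV and 31.1, 32.1 and 29 CPM in Molm-14 EV. SLC2A3, the high-affinity neuronal type, was at 2.79, 2.24 and 2.36 CPM in THP-1 EV, 11.4, 9.69 and 14.8 CPM in MV4-11 EV and 72, 68 and 73.3 CPM in Molm-14 EV. SLC16A7, the monocarboxylate transporter MCT2, had 2326 counts in THP-1 EV, 1 in MV4-11 EV and 772 in Molm-14 EV. TXNIP, which limits glucose uptake, was above both at 745 ± 65.9 CPM in THP-1 EV, 468 ± 29.4 in MV4-11 EV and 207 ± 13.7 in Molm-14 EV.

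Of the pyruvate carrier, PDH complex and TCA cycle list, 7 of 30 tested members were above both lines and 6 below both, close to the shares over all genes. MPC1, whose values are given above, was higher in THP-1 EV than in both lines (log2 fold change 0.56 ± 0.08, FDR 2.60e-07), while its partner MPC2, named after its values were seen, was not called against Molm-14 EV (FDR 0.313) and was at 83.1 ± 6.6 CPM in THP-1 EV, 68.7 ± 9.95 in MV4-11 EV and 89.8 ± 6.36 in Molm-14 EV. PDK4, which switches PDH off, had 66 counts in THP-1 EV against 1 and 0. IDH3B, a subunit of isocitrate dehydrogenase, was below both at 41.5, 39.6 and 34.2 CPM in THP-1 EV, 130.5, 101 and 106 CPM in MV4-11 EV and 112, 102.1 and 112 CPM in Molm-14 EV. Of nuclear genes of oxidative phosphorylation, 2 of 74 tested members were above both lines, 28 below both (2.7% and 37.8%) and 44 neither, with a median of -0.27 and none at 4-fold. UQCRFS1, a subunit of complex III, was at 65.3 ± 9.7 CPM in THP-1 EV, 156 ± 11.4 in MV4-11 EV and 160.4 ± 12.9 in Molm-14 EV. Of those 28, 7 lie on chromosome 19, where 7 of 9 members were below both, 4 on chromosome 12, where 4 of 5 were below both, and 2 on chromosome 10. Of 13 subunits encoded in the mitochondrial genome, 1 was above both and 2 below both. Glutamine and serine metabolism gave 1 above and 9 below of 23 (4.35% and 39.1%, against 22.4% and 20.6% over all genes). The median was 0.01 against MV4-11 EV and -1.31 against Molm-14 EV. The median was thus lower against Molm-14 EV only, while the 9 members below both were lower against MV4-11 EV too. GPT2, the mitochondrial alanine transaminase, was at 20.1, 17.5 and 20.5 CPM in THP-1 EV, 91.2, 80.8 and 91 CPM in MV4-11 EV and 103, 103 and 89.3 CPM in Molm-14 EV, and GLUD1, glutamate dehydrogenase, on chromosome 10 and overlapping SHLD2 (also below both), at 81.4, 84.9 and 71.4 CPM in THP-1 EV, 299.8, 258 and 265 CPM in MV4-11 EV and 314, 284 and 319 CPM in Molm-14 EV. SLC38A1, a glutamine transporter, was the 1 above both, at 480.4, 503 and 482 CPM in THP-1 EV, 66.9, 74.7 and 74.6 CPM in MV4-11 EV and 364, 424 and 393 CPM in Molm-14 EV; in KO it was not called above both.

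Lipid genes went both ways, at shares near those over all genes (22.4% above and 20.6% below). In cholesterol and fatty acid synthesis, 9 of 30 tested members were above both lines and 7 below both (30% and 23.3%). SC5D, an enzyme of sterol synthesis, was above both at 94.6, 101 and 86.8 CPM in THP-1 EV, 25.8, 29.5 and 28.5 CPM in MV4-11 EV and 34, 37.8 and 39.96 CPM in Molm-14 EV. ELOVL6, which lengthens fatty acids, had 2 counts in THP-1 EV against 225 and 98, and SCD, the stearoyl-CoA desaturase, was at 128, 137 and 161 CPM in THP-1 EV, 281, 298 and 299 CPM in MV4-11 EV and 1244, 1521 and 1336 CPM in Molm-14 EV. For the carnitine shuttle and fatty acid oxidation, 7 of 22 tested members were above both lines and 5 below both (31.8% and 22.7%). ECHS1, enoyl-CoA hydratase, on chromosome 10, was below both at 46.5 ± 3.9 CPM in THP-1 EV, 193 ± 22.9 in MV4-11 EV and 169 ± 10.4 in Molm-14 EV.

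Replication-dependent histone genes and ribosomal protein genes were lower in THP-1 EV as groups. Of histone genes, 1 of 37 tested members were above both lines and 29 below both (2.7% and 78.4%), with a median of -1.23. All 29 lie in the clusters on chromosome 6, as do 36 of the 37 tested. H4C11, described above, is not on this list. H4C1 was at 41.1, 38.9 and 37 CPM in THP-1 EV, 98.1, 98.7 and 105 CPM in MV4-11 EV and 153, 139 and 149.5 CPM in Molm-14 EV. H4C6 was the exception, at 179.5, 158 and 146 CPM in THP-1 EV, 38.7, 26.3 and 30.7 CPM in MV4-11 EV and 0 CPM in all 3 libraries of Molm-14 EV. Histone transcripts lack poly(A) tails, and the total RNA libraries can count them, but their coding sequences are near-identical and reads may be split or lost. Of ribosomal protein genes, 33 of 75 were below both (44%) and 0 above, with medians of -0.2 against MV4-11 EV and -0.76 against Molm-14 EV. On chromosome 19, 12 of 13 were below both, and elsewhere 21 of 62. RPL13A, from chromosome 19, was at 446, 385 and 408 CPM in THP-1 EV, 1292, 931 and 1083 CPM in MV4-11 EV and 1467, 1215 and 1258 CPM in Molm-14 EV. Ribosomal protein genes have many processed copies, so their counts carry the same uncertainty. Genes of DNA replication and mitosis did not go 1 way: 7 of 57 tested members were above both lines and 13 below both (12.3% and 22.8%). PCNA, the replication clamp, was at 153, 155 and 129.6 CPM in THP-1 EV, 538, 469 and 476 CPM in MV4-11 EV and 462, 421 and 464 CPM in Molm-14 EV, and CDC20, the mitotic activator of the anaphase-promoting complex, at 515, 454 and 495 CPM in THP-1 EV, 107, 95.7 and 101 CPM in MV4-11 EV and 138, 130.1 and 124 CPM in Molm-14 EV. In the BCL2 family, 2 of 17 tested members were above both lines and 4 below both (11.8% and 23.5%).

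**Figure D4:**
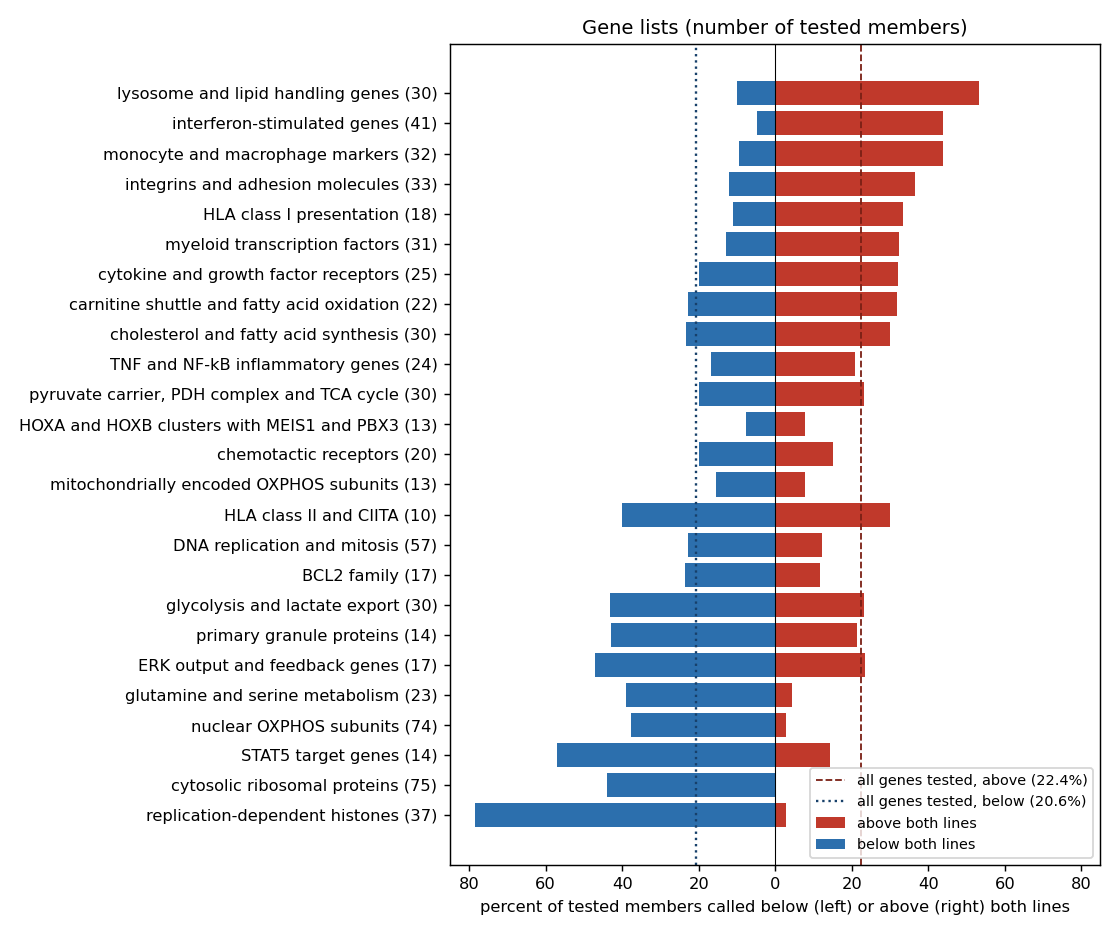
Percent of tested members of each gene list that THP-1 EV had above both lines (red, right) or below both (blue, left), for the lists shown, each with at least 10 tested members (their number in parentheses). The dashed line marks the share above over all genes (22.4%) and the dotted line the share below (20.6%), and the bar of the histone list reaches 78.4% on the left.

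Position on the chromosomes, which the choice of samples did not use, went with part of the difference. On chromosome 10, 335 of 540 tested genes were below both lines (62.0%) and 35 above (6.48%), and the median log2 fold change was -0.88 against MV4-11 EV and -1.32 against Molm-14 EV. The shift ran over the whole chromosome: in its 7 windows of 20 Mb, between 38.3% and 78.2% of genes were below both. On chromosome 1 the shift was upward, with 564 of 1462 genes above both (38.6%), and strongest from 40 to 60 Mb, where 105 of 158 were above (66.5%). It was not seen in the first 40 Mb, whose 2 windows had 18.5% and 17.5% above both and 17.3% and 25% below both. The start of chromosome 17, to 20 Mb, had 152 of 231 genes below both (65.8%), that of chromosome 20 had 58 of 99 (58.6%), that of chromosome 6 had 41 of 76 (53.9%), and that of chromosome 12 had 71 of 145 (49.0%). The next window of chromosome 6, from 20 to 40 Mb, which holds the histone clusters, had 106 of 275 below both (38.5%). The 29 histone genes below both are themselves among these. The first 20 Mb of chromosome 9 had 30 of 49 above both (61.2%). On chromosome 19, 429 of 1048 were below both (40.9%), with a median of -0.76 against MV4-11 EV and -0.34 against Molm-14 EV. From 40 to 60 Mb, which holds 423 of the 1048, 97 were below both (22.9%) and the median was -0.73 against MV4-11 EV and 0.06 against Molm-14 EV, so the shift against both lines lay in the first 40 Mb. Chromosome 19 genes are rich in GC, with a median transcript GC of 57.0%, and the median log2 fold change over all genes fell from 0.15 in the lowest decile of GC content to -0.30 in the highest. After the median of each GC decile was taken away, the median of the mean contrast was -0.40 on chromosome 19 instead of -0.55, -1.18 on chromosome 10 instead of -1.10, and 0.38 on chromosome 1 instead of 0.41. Several of the genes described above as below both lie in these regions, among them GLUD1, SCD, ECHS1, HMX2 and HMX3 on chromosome 10. Others are CCND2 and CD4 on chromosome 12, SIRPA, PCNA and IDH3B on chromosome 20, and PRSS57 and ICAM1 on chromosome 19. Genes described as above both lie in shifted regions too. Chromosome 1 holds 5 of the 6 S100 genes above both and 4 of the 14 monocyte and macrophage markers above both. The S100 gene below both, S100A10, lies there as well. DNA copy number was not measured, and its part in these levels was not tested.

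**Figure D5:**
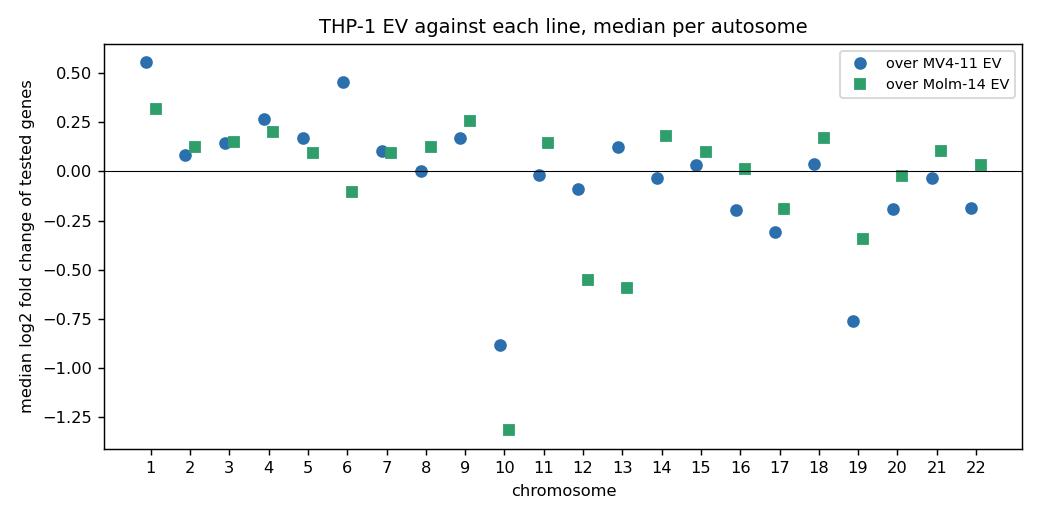
Median log2 fold change of the tested genes of each autosome, for THP-1 EV over MV4-11 EV (blue circles) and over Molm-14 EV (green squares). Chromosome 10 is low against both lines (-0.88 and -1.32), chromosome 19 is low against both (-0.76 and -0.34) and chromosome 1 is high against both (0.55 and 0.32).

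The KO libraries of the same 3 lines entered the fit, which shares 1 estimate of the spread, but not the contrasts above, and gave the comparison again. There, 3092 genes were above both lines (22.2%) and 2864 below both (20.6%). Of the genes above both in EV, 2719 were above both in KO, which is 87.2% of the EV set and 87.9% of the KO set. Of those below both, 2414 were below in both arms, or 84.3% of each set. No gene was above both in one arm and below both in the other. At 4-fold in EV, 928 of 934 genes above both and 210 of 221 below both were called in the same direction in KO. All 30 genes named by the rule, 24 protein-coding and 6 lncRNA, were called again in the same direction. MEIS1, for example, was at means of 0.627, 227 and 137 CPM in the KO libraries of THP-1, MV4-11 and Molm-14. The KO libraries are other cells of the same lines, so they repeat the lines and not the FLT3 genotype. The difference of THP-1 from the other lines was itself not the same in KO and EV for 43 genes at a 5% FDR (0.309%), a count that was 21 without THP-1 EV replicate 2, 78 with no filter and 0 in a test against a 1.5-fold change.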

How the data were processed

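RNA of each sample was extracted with a Qiagen miRNeasy kit and made into stranded, rRNA-depleted Illumina libraries, per the labels. The authors deposited 1 table of raw read counts per gene for the 18 libraries of the knockout series. Per the submitters' processing notes, these came from GRCh38 with cutadapt 1.16, STAR 2.7.6a and featureCounts 1.6.3, and DESeq2 1.30.1 was used downstream. The study's methods name an Ensembl annotation, but this table lists fewer gene IDs than the other count table of the series, so the release behind it is uncertain. The strand setting of the counting is not given in the sources used here. Of 58051 gene IDs, 56948 matched GENCODE 44, which gave symbols, positions and overlaps.

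From these counts, all 18 libraries were fitted together in edgeR 4.0.16 (R 4.3.3) after filterByExpr, with TMM scaling, 1 coefficient per line and arm, and the robust quasi-likelihood F-test. Benjamini-Hochberg adjustment ran over all 14490 genes tested, at 5%, and 491 X or Y genes and 100 gene IDs without a position were then left out. Values are CPM on TMM-scaled library sizes. A log2 fold change is followed by its standard error, and unless a line is named it is THP-1 EV over the mean of both lines, each line with equal weight. CPM after ± is the SD of 3 libraries. CPM is not corrected for gene length, so levels are compared between lines and not between genes. Against a group at 0, a fold is a lower bound from 3 counts over the 3 libraries of that group. For 1 to 3 counts the ratio has a 95% counting interval. Totals of 5339360 to 9106478 counts leave the low genes uncertain by counting alone, and 3 counts correspond to 0.338 to 0.544 CPM in a single library.

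Named genes were the 12 protein-coding and 3 lncRNA genes each way with the largest difference from the nearer line, at 10 CPM or more and without overlap between lines, together with leading members of 34 gene lists. The members and lists were chosen with earlier results of these data known. CD33, LYZ, CD68, HOXA9, MPC2, STAT5B, MYB, CEBPE, B2M, HLA-DRA, GPI, TXNIP, LDHB, TPI1, REL, IL1RN, CASP1, OAS3 and IFIT3 are list members named after their values were seen. The fit was tested on simulated counts with known changes. The alternatives were DESeq2 size factors or library size alone, DESeq2 1.42.0, no filter or a stricter filter, the 9 EV libraries alone, the replicate number as a block, a test against a 1.5-fold change, and leaving out each EV library. Centring on deciles of transcript GC content was added after seeing the data. Promoter sequences are from RefSeq. One gene list and its members are not reported here.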

Additional observations from a re-analysis of the deposited data

Results flagged for a closer look

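Of 13899 genes, 43 had a THP-1 difference that was not the same in KO and EV, by the interaction term of the edgeR quasi-likelihood fit with Benjamini-Hochberg adjustment at 5% (0.309%). The interaction was above 0 for 15 of them and below 0 for 28, and 14 of the 43 were on a gene list. The count was 21 without THP-1 EV replicate 2, 78 with no filter and 0 in a test against a 1.5-fold change. Each value here is the log2 fold change of THP-1 over the mean of both lines in KO minus that in EV.

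No theme among the 43 was tested. The interaction was 0.91 for CTSG, 0.66 for the granule protease PRTN3 and 0.77 for the nuclear protein MNDA, so THP-1 stood higher relative to the other lines after the knockout. The chemokine receptors CCR1 and CCR2 had -0.91 and -0.62. The scavenger receptor CD36 had -0.62, the monocyte membrane protein MS4A6A -0.51, the monocyte transcription factor IRF8 -0.54 and the integrin ITGB5 -1.03.

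The interaction was 0.73 for SCD, 0.76 for the desaturase FADS2 and 0.59 for DHCR7, an enzyme of cholesterol synthesis. It was -0.44 for the glutamine transporter SLC38A1 and -0.49 for the fructose transporter SLC2A5. The interaction alone does not say in which line a level differed between KO and EV, but the group means do. PRTN3 means in EV and KO were 880 and 879 CPM in THP-1, 1075 and 653 in MV4-11, and 500 and 327 in Molm-14. For CCR1 they were 62 and 59.4 in THP-1, 56.2 and 81.1 in MV4-11, and 21.3 and 47.9 in Molm-14. CTSG differed in THP-1 too, at 2519 and 3218, with 282 and 237 in MV4-11 and 439 and 242 in Molm-14. Groups of 3 libraries are too small for the test of single outlying samples.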

How the results depend on the processing

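Of 141 genes followed, 132 were called above or below both. Called genes kept their direction in each alternative that tested them, the exception being ERG, which was below the filter in the 9 EV libraries alone and has no value there. The uncalled HOXA9 changed sign in some settings. No call was lost under library size alone, the stricter filter or the replicate block. Of the calls, 17 were lost in a test against a 1.5-fold change, MPC1, MYB, STAT5B, SLC38A1, CD74, HLA-DRA, B2M, TXNIP, FOCAD, ID1 and IFIT3 among them. KIT lost its call in the 9 EV libraries alone (FDR 0.0522) and without MV4-11 EV replicate 1, THP-1 EV replicate 2 or THP-1 EV replicate 3. ID1, XAF1 and ETV5, an ERK output gene, were lost in other settings that left out 1 library. ETV5 and XAF1 were also lost under DESeq2 and with no filter, and XAF1 under DESeq2 size factors and in the 9 EV libraries alone.

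Against a 1.5-fold change, 4909 genes differed from the mean of both lines, 1737 were above both and 1164 below both, and in KO 1743 were above and 1169 below; the interaction count was 0 there, against 43 in the quasi-likelihood test and 60 in DESeq2. With no filter, genes at least 4-fold above both rose to 1477 and the interaction count to 78, since more low genes were tested. Leaving out each EV library gave 9071 to 9634 genes for the mean contrast, 2958 to 3173 above both, 2607 to 2810 below both, 955 to 998 and 228 to 244 at 4-fold, 3117 to 3207 and 2812 to 2929 in KO, and 21 to 48 for the interaction, which was 21 without THP-1 EV replicate 2. DESeq2 size factors gave 3332 above both and 2586 below both.

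Chromosome medians moved by more than the spread between THP-1 EV libraries in some settings. On chromosome 10 the median was -1.04 under DESeq2 size factors and under DESeq2, and -1.18 after GC centring. On chromosome 19 it was -0.40 after GC centring. On chromosome 1 it was 0.47 under DESeq2 size factors and under DESeq2, 0.43 with library size alone and 0.38 after GC centring. None of 59 medians of lists, families and chromosomes changed sign under the other scalings.

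Replicate numbers are shared between the lines, but not every same-numbered pair deviated together, so the numbers were not taken to pair the samples. Replicate 1 correlated at 0.547, 0.566 and 0.583 between the lines, and MV4-11 EV with THP-1 EV at 0.107 and 0.347 for the other numbers, but Molm-14 EV with THP-1 EV at -0.27 and -0.405 and with MV4-11 EV at 0.516 and -0.214. Not every library correlated best with its own number. With the replicate number as a block, 9596 genes were called, 3142 above both and 2889 below both, 937 and 221 at 4-fold, 3127 and 2894 in KO and 47 for the interaction. Depth limits the genes with few counts in 1 line, where folds are bounds.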

Other observations

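Gene families taken by symbol, some of whose members are also on the gene lists, were counted against the shares over all genes (22.4% above both and 20.6% below both). They were picked after their values were seen and carry no test. A member silent in both other lines passed the filter on low counts only through THP-1 libraries. Such a member could be above both but not below both, so the splits and medians of these families depend in part on the filter. Of 31 tested clustered protocadherins, the cell surface proteins that neurons use to tell themselves apart, 21 were above both lines and 0 below both, 12 of them at least 4-fold, with a median log2 fold change of 2.68. Their genes share exons and overlap one another, so reads may be counted for more than 1 member or for none. Of 18 collagen genes, 9 were above both and 0 below both, 7 at 4-fold, with a median of 2.10. Of 14 cathepsins, proteases of the lysosome and granules, 7 were above both and 0 below both, with a median of 0.97. Zinc finger genes of the ZNF series gave 97 above both and 91 below both of 487, near the shares over all genes.

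A set of 55 genes had at least 10 CPM in THP-1 EV and at most 3 counts over the 3 libraries of each other line. The reverse held for 8 genes, with at most 3 counts over THP-1 EV and at least 10 CPM in each of the other lines.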
